A study of Mus musculus with 4 samples.

Results

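The histone genes of the postnatal mouse retina were examined in EGFP-sorted cells of the pHes1-EGFP mouse. A gene was a member if its symbol started with Hist1h, Hist2h, Hist3h or Hist4h, or with H2af, H3f3 or H1f. This gave 81 genes of 21826, of which 67 lay in the replication-dependent clusters and 14 were replacement variants or linker variants outside the clusters. Symbols alone decided membership, under a rule set with earlier results of these data known. For 6 members with more than 1 entry, the entry with the highest summed level was kept. The mice carried a transgene in which the Hes1 promoter drives a destabilized EGFP, and the strain was FVB/N by the labels. Retinas of untreated animals, kept under SPF conditions with normal feeding, were dissociated at postnatal day 1 (P1) or day 4 (P4) and sorted into EGFP-positive cells (pHes1_EPC) and EGFP-negative cells (pHes1_ENC). All 4 groups carry the transgene, so that the fractions differ in EGFP and not in genotype. Each of the 4 groups is 1 library, and the number of animals behind a library is not given in the sources used here. For this reason no test between groups was run, and every difference is a description of these libraries.

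Histones pack DNA into nucleosomes, each built from H2A, H2B, H3 and H4, and linker histone H1 binds where the DNA enters and leaves. The replication-dependent genes lie in clusters and are expressed mainly in S phase, when new DNA has to be packed. Their mRNAs end in a conserved stem-loop instead of a poly(A) tail, and the stem-loop is bound by the stem-loop binding protein Slbp. Replacement variants such as H2A.Z (H2afz, H2afv), macroH2A (H2afy, H2afy2) and the H3 variant encoded by H3f3a and H3f3b are made throughout the cell cycle from polyadenylated mRNAs. H2A.X (H2afx) is grouped here with the replacement variants by its symbol. Several cluster genes are also known to give polyadenylated transcripts in differentiated cells. In the first postnatal days the retina still holds dividing progenitors, while rods and Müller glia are being formed.

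The stem-loop was searched in the NCBI37/mm9 genome within 100 bases after every annotated stop codon, as 16 bases that start with GG and end with CC, pair in at least 5 of 6 stem positions and hold a loop of 4 bases that reads TNTN. It was found in 62 of 65 replication-dependent genes that could be searched, starting 22 to 59 bases after the stop codon, and in 1 of 12 replacement variants, H2afx. Among 19934 other protein-coding genes 0.201% held a match. The same 16 bases were shared by 38 of the 62 genes, but by none of the 13 H4 genes. No match to the searched pattern was found in Hist1h2an, Hist2h2bb and Hist2h2be. The sites below are the stretches of 26 bases around the stem-loop, on the strand of the gene, with the stem-loop in capitals. They are shown because Hist1h1c, Hist1h1b and Hist3h2ba share it but differed in their pattern across the libraries, and because H2afx is the variant that carries it.
Hist1h1b: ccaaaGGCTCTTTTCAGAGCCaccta
Hist1h1c: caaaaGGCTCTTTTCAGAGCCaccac
Hist3h2ba: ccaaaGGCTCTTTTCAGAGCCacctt
Hist2h3c1: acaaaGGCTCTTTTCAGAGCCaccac
Hist1h3i: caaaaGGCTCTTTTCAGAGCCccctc
Hist1h3g: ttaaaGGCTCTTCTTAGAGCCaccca
Hist1h2bm: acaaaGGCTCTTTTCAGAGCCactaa
Hist1h4d: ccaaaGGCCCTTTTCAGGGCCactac
Hist1h4a: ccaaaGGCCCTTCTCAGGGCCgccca
H2afx: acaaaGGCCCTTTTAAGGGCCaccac

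These sites lie in NCBI37/mm9 at chr13:21871701-21871726 (minus strand) for Hist1h1b, chr13:23831376-23831401 (plus) for Hist1h1c, chr11:58762846-58762871 (plus) for Hist3h2ba and chr3:96051245-96051270 (plus) for Hist2h3c1. The site of Hist1h3i is at chr13:21874784-21874809 (minus), that of Hist1h3g at chr13:23627753-23627778 (plus) and that of Hist1h2bm at chr13:21814370-21814395 (plus). Hist1h4d carries it at chr13:23673814-23673839 (plus), Hist1h4a at chr13:23852664-23852689 (minus) and H2afx at chr9:44143318-44143343 (plus). All 10 lie behind the stop codon in the transcribed 3′ part of the gene. The gene line over which the FPKM was estimated ended before or less than 200 bases past the stem-loop in 51 of the 62 genes and ran 200 bases or more past it in 11, among them Hist1h1c (840 bases past) and Hist2h3c1 (1167 bases past).

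The promoter windows, from 250 bases before to 50 bases after the start of the gene line, were searched on both strands for the octamer ATTTGCAT, for CCAAT and for TATAAA. The octamer, which is read by the Oct transcription factors, was found in 16 of 66 replication-dependent promoters (9 of 18 H2B and 7 of 18 H2A genes, and no H1, H3 or H4 gene), against 1.70% of 20844 gene lines. CCAAT was found in 56 of the 66, against 38.0%, but only in 4 of 13 H4 genes. TATAAA was found in 37 of the 66, against 12.5%. In the 14 replacement variants the counts were 1, 9 and 3. Motifs of different kinds did not share bases in the windows shown here, in which each match is in capitals. The window of Hist1h2bm (chr13:21813717-21814016, plus strand) shows the octamer with CCAAT. Those of Hist1h1b (chr13:21872374-21872673, minus strand) and Hist1h1c (chr13:23830426-23830725, plus strand) are shown because these linker genes differed in opposite directions between the fractions.
Hist1h2bm: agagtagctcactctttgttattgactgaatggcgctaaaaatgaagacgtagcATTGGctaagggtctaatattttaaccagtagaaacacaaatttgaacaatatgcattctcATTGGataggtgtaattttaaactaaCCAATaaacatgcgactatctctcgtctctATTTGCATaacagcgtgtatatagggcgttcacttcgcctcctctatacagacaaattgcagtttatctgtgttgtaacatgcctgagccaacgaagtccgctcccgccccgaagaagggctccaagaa
Hist1h1b: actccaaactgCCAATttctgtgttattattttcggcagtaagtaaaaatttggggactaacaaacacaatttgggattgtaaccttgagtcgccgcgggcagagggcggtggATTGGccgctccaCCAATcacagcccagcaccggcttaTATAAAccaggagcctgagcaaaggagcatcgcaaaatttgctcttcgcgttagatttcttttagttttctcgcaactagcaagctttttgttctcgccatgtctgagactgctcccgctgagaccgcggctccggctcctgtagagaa
Hist1h1c: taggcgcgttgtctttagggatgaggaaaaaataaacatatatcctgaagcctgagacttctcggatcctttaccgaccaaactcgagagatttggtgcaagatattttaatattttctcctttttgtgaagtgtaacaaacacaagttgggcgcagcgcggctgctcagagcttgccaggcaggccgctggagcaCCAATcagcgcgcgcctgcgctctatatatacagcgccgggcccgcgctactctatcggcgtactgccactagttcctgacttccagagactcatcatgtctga

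The deposited FPKM is a fragment count scaled for transcript length and for the mapped fragments of the library, and it comes with a 95% interval from Cufflinks. The files hold no read counts, so the depth is unknown, and the interval covers counting error only. Its half-width was 2.48% to 6.07% for H2afz, 3.84% to 11.8% for Hist1h1c and 44.8% to 100% for Hist1h4a, a typical short cluster gene. The FPKM lay above its own interval for 33, 54, 20 and 36 members in P1 pHes1_ENC, P1 pHes1_EPC, P4 pHes1_ENC and P4 pHes1_EPC, so that for these genes the interval does not enclose the value. Runs of 4 values per gene are given in this order of libraries throughout. Over all genes above 0, 11.3% to 13.3% lay outside. In bulk RNA of sorted cells, fewer cells of a type and less RNA per cell cannot be told apart. As a check of the sort, the 9 genes of the Müller glia and progenitor list (Hes1, Hes5, Sox2 and others) were higher in pHes1_EPC at both ages, and their summed FPKM in pHes1_ENC and pHes1_EPC was 392 against 1510 (P1) and 207 against 2163 (P4). The 6 rod genes (Nrl, Crx, Rcvrn and others) summed to 607 against 34.8 (P1) and 2895 against 546 (P4).

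The 14 replacement variants together had a much higher FPKM than the 67 replication-dependent genes together. The replication-dependent sum was 386 in the pHes1_ENC and 634 in the pHes1_EPC of P1, with 399 and 375 in these fractions at P4. The replacement sum was 2123, 2513, 2275 and 2948 in the same order. Thus the replication-dependent genes made up 15.4%, 20.2%, 14.9% and 11.3% of all histone FPKM, with the largest share in P1 pHes1_EPC. For H3, the pair H3f3a and H3f3b held 97.2%, 87.3%, 98.3% and 97.8% of the family's FPKM. How the libraries were depleted of ribosomal RNA or selected for poly(A) is not given in the sources used here, and its part in these levels was not tested.

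The families differed in how their sums compared between the libraries. The H4 sum was 28.5 in the pHes1_ENC and 104 in the pHes1_EPC of P1, with 9.09 and 34.8 in these fractions at P4, which is 3.66-fold higher in pHes1_EPC at P1 and 3.83-fold higher at P4. The replication-dependent H3 sum was 35.1, 127.8, 27.5 and 35.2, so that the ratio was 3.64 at P1 and 1.28 at P4. The Hist1 H3 genes alone had ratios of 4.42 and 3.86, whereas the 3 Hist2 H3 genes had 1.66 and 0.443. H2A gave 114, 189, 124 and 117, and H2B gave 160, 169, 91.4 and 138, with ratios of 1.65 and 1.05 at P1. Within the Hist1 cluster these P1 ratios were 2.40 for H2A and 3.14 for H2B. The replication-dependent H1 sum went the other way at P4, with 147 in pHes1_ENC against 49.8 in pHes1_EPC. The sums over all 67 genes therefore mix members with opposite patterns, and the ratio at P4, 0.938, became 334 to 259 in favour of pHes1_EPC when Hist1h1c was left out, which was tried after the values had been seen. At P1 the ratio of the sums was 1.64. Over the 26 genes with at least 50% of their 36-base windows in no other member it was below 1, with a log2 value of -0.44. Hist1h1c and the 3 Hist3 genes are among these 26. The Hist3 genes alone held 127 of the summed 220 in pHes1_ENC and 27.5 of 163 in pHes1_EPC.

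**Figure D1:**
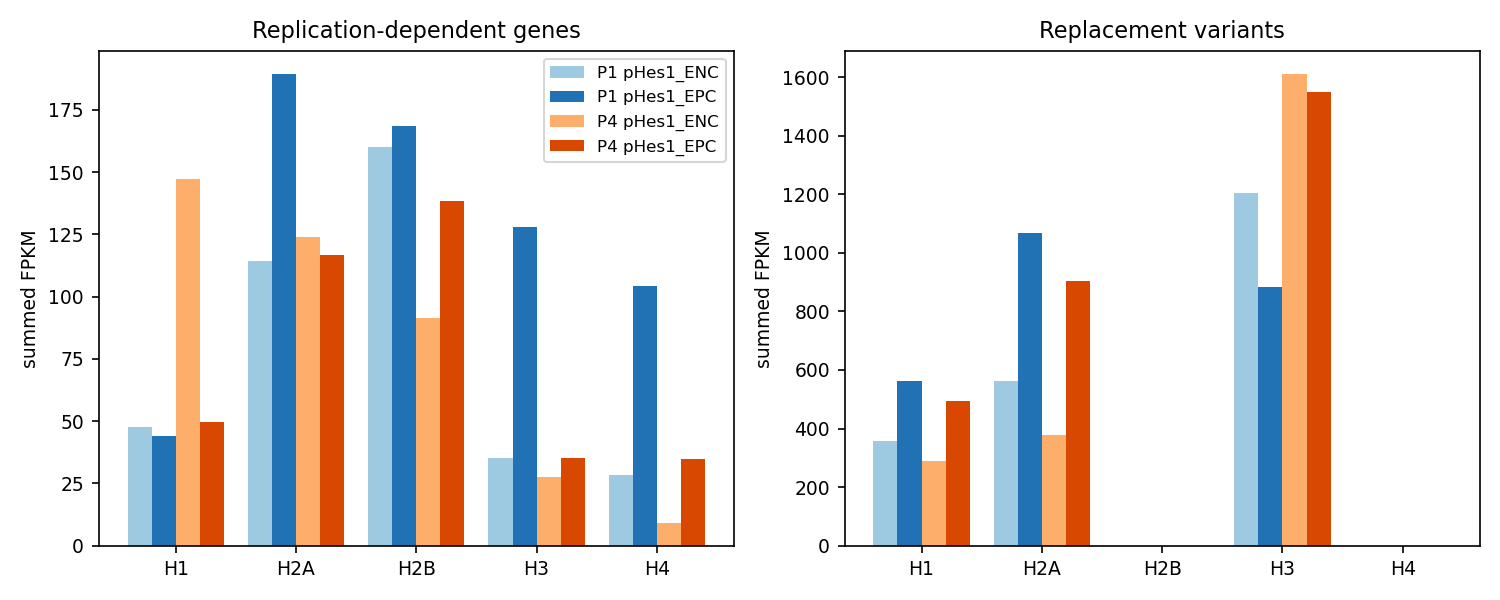
Summed FPKM of each histone family in the 4 libraries (colours), for the replication-dependent genes (left) and the replacement variants (right). Each bar is 1 library without an error, and the vertical scales differ. The H3 and H4 sums of the replication-dependent genes reach 127.8 and 104 in P1 pHes1_EPC, whereas the H1 sum is highest in P4 pHes1_ENC at 147.

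At P1, most replication-dependent genes were higher in the EGFP-positive cells. Differences subtract log2(FPKM + 1) of pHes1_ENC from that of pHes1_EPC, a scale that understates low genes, and a gene was listed when it differed by more than 1, a 2-fold change on this scale. Of the 67 genes 45 were listed as higher, against a background of 6.1% of all genes, and 5 were listed as lower, against 6.79%. The median of the 67 differences was 1.25, and that of all genes was 0. The 5 lower genes were Hist1h1c, Hist2h2aa1 and the 3 genes of the Hist3 cluster. The Cufflinks intervals of the fractions did not overlap for 45 genes that were higher, against 22.1% of all genes, and for 7 that were lower in pHes1_EPC, against 21.8%. Of the 26 genes with at least 50% of their windows unique among the members, 9 were listed as higher and 4 as lower, with a median of 0.58. Those 4 were Hist1h1c and the Hist3 genes. Of the 14 replacement variants 3 were listed as higher (H2afz, H2afx and H1fx) and none as lower, with a median of 0.04.

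The H3 and H4 genes of the Hist1 cluster were all listed as higher at P1. Hist1h3i, an H3 gene, had an FPKM of 2.68 in the pHes1_ENC and 13.2 in the pHes1_EPC of P1, with 0.67 and 2.92 in these fractions at P4, and the P1 ratio was 4.93 (2.26 to 11.0 from the intervals). Hist1h3e had 3.35, 15.4, 1.12 and 3.07, and Hist1h3c had 3.19, 14.7, 0.66 and 3.61. All 9 Hist1 H3 genes were listed as higher at P1, with differences from 1.25 to 1.95. The other named H3 genes of the cluster, Hist1h3a, Hist1h3b, Hist1h3d, Hist1h3g and Hist1h3h, had P1 differences of 1.76, 1.85, 1.71, 1.76 and 1.87. All 11 Hist1 H4 genes were listed as well, from 1.01 to 1.75. Over all genes 6.1% were listed as higher. Counting all clusters, the intervals lay apart with pHes1_EPC higher for 10 of 12 H3 genes, and with it lower for 1. For H4 they lay apart in only 5 of 13 genes, all higher, against 22.1% of all genes. For Hist1h4d the FPKM was 4.37, 16.3, 0.95 and 4.55, a difference of 1.69 at P1 and 1.51 at P4. Hist1h4j had 2.94, 10.8, 0.36 and 2.62. These genes were highest in P1 pHes1_EPC and lowest in P4 pHes1_ENC. Across the cluster, 48 of the 52 Hist1 genes above 0 had their highest FPKM in P1 pHes1_EPC, and 48 had their lowest in P4 pHes1_ENC.

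H2A and H2B genes of the Hist1 cluster followed with a smaller difference. Of 13 Hist1 H2A genes 10 were listed as higher at P1 (median difference 1.12), and of 14 Hist1 H2B genes 10 were (median 1.34). Over all genes it was 6.1%. Hist1h2an, with the highest FPKM of the H2A genes in P1 pHes1_EPC, had 7.56, 18.7, 5.08 and 9.03 in P1 pHes1_ENC, P1 pHes1_EPC, P4 pHes1_ENC and P4 pHes1_EPC. The named H2A genes Hist1h2ab, Hist1h2ad, Hist1h2af, Hist1h2ag, Hist1h2ah, Hist1h2ai and Hist1h2ak lay between 1.09 and 1.26 at P1, a narrow band in a family in which a median of 29.7% of the 36-base windows of a gene occur in no other member. Hist1h2ap stood at 0.72, but its Cufflinks status was not OK in every library. Hist1h2bm, an H2B gene, had an FPKM of 3.16, 13.5, 1.70 and 4.997, with a P1 ratio of 4.29 (1.75 to 11.4). Hist1h2bj, Hist1h2bk, Hist1h2bl and Hist1h2bn gave P1 differences of 1.64, 1.54, 1.27 and 1.49. Hist1h2aa and Hist1h2ba, known as testis histone genes, were low, with 1.33, 2.34, 1.04 and 3.26 for Hist1h2aa and 1.83, 4.00, 1.67 and 2.50 for Hist1h2ba.

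**Figure D2:**
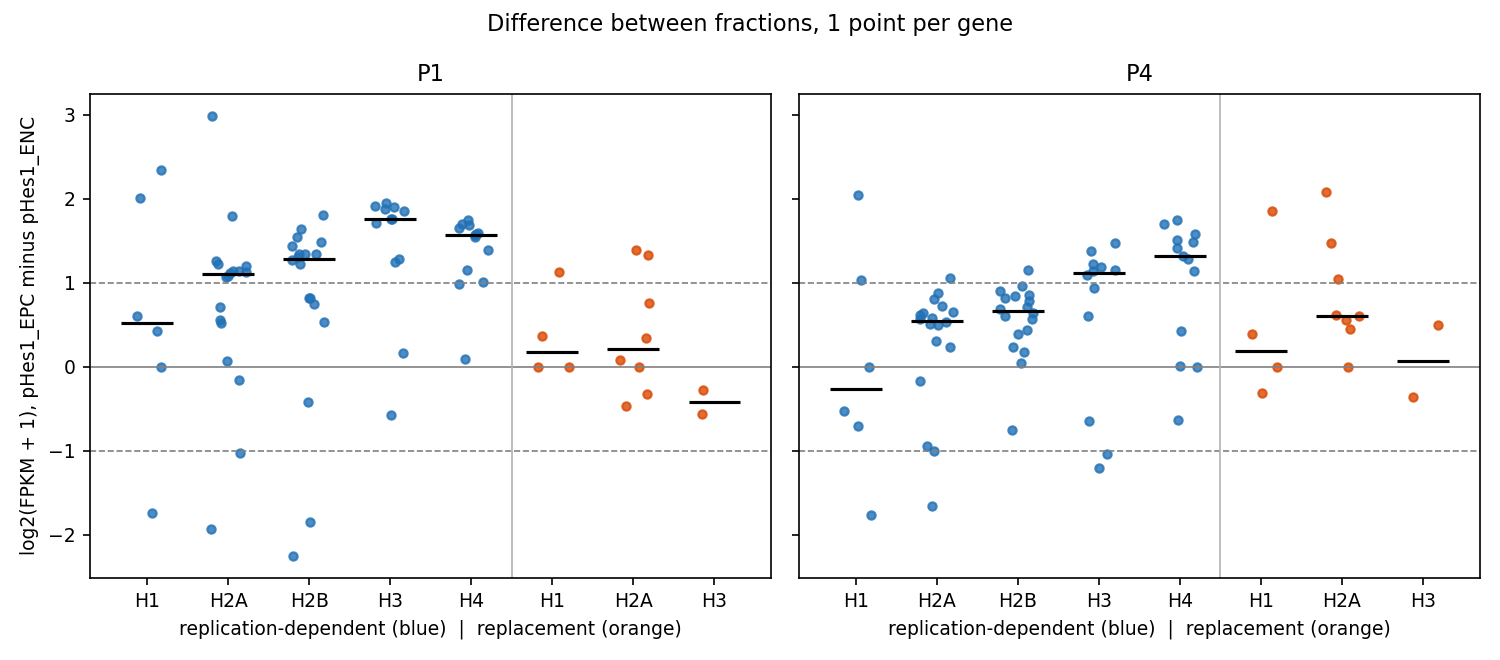
Difference in log2(FPKM + 1) between pHes1_EPC and pHes1_ENC at P1 (left) and P4 (right) for each of the 81 genes, by family. Points are genes (blue, replication-dependent; orange, replacement), black bars are medians, and dashed lines mark the 2-fold limits. The medians of the replication-dependent H3 and H4 genes are 1.76 and 1.57 at P1 and 1.11 and 1.32 at P4, while H1 spans both directions.

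At P4, fewer replication-dependent genes passed the 2-fold limit. Higher in pHes1_EPC were 20 of 67, against 9.85% of all genes, and 5 were lower, against 5.42%, with a median difference of 0.64. Of the 20, 9 were H4, 7 were H3 and 2 were H1 genes, whereas Hist1h2aa was the only H2A gene and Hist1h2bm the only H2B gene listed, and the intervals of both overlapped between the fractions. For Hist1h4n, an H4 gene, the FPKM was 0.86 in pHes1_ENC and 5.26 in pHes1_EPC. The H3 gene Hist1h3c, at 0.66 and 3.61, had a ratio of 5.43 with a range from 1.11 to 45.1, which shows how wide the error is at these levels. The intervals did not overlap for 9 higher genes, 6 of them among the 20, and this is 9 of 67 against a background of 28.3% of all genes. They did not overlap for 7 lower genes, against 18.6%. The split of 20 higher and 5 lower was 12 and 6 after rescaling to the same total, where 7.03% of all genes were higher and 7.64% lower. After quantile normalization it was 11 and 7, with 7.06% and 7.11% of all genes, and with a pseudocount of 0.1 it was 32 higher genes, against 14.7%. Of the replacement variants 4 were higher (H2afz, H1fx, H2afx and H2afj) and none lower, with a median of 0.53. At this age pigment epithelium genes were also higher in pHes1_EPC, where the list of 6 summed to an FPKM of 80.97 against 7.46 in pHes1_ENC (Rpe65 0.42, Ttr 23.1 and Best1 0.27 in pHes1_EPC), and their part in these differences was not tested.

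The linker genes of the Hist1 cluster showed opposite patterns. Hist1h1c (H1.2) had an FPKM of 39.6 in the pHes1_ENC and 11.1 in the pHes1_EPC of P1, with 141 and 40.7 in these fractions at P4, so it was 3.56-fold (2.94 to 4.26) higher in pHes1_ENC at P1 and 3.46-fold (3.08 to 3.81) higher at P4. Hist1h1b (H1.5) had 3.69, 17.9, 0.23 and 4.09, with a P1 ratio of 4.85 (2.54 to 8.18) in favour of pHes1_EPC and a P4 difference of 2.05. Both hold the same stem-loop, as printed above, but the line of Hist1h1c runs past it and that of Hist1h1b ends before it. Hist1h1a (H1.1) had 0.94, 8.82, 0.29 and 1.63, the same order of libraries as Hist1h1b, although the intervals of P4 pHes1_EPC and P1 pHes1_ENC overlapped. Hist1h1e was at 2.23, 3.92, 3.71 and 2.26, and Hist1h1d at 1.31, 2.1, 2.45 and 1.11, so that each was higher in pHes1_EPC at P1 and lower at P4. The testis linker gene Hist1h1t was listed at 0 in every library. Hist1h1c made up 82.9%, 25.4%, 95.5% and 81.7% of the replication-dependent H1 sum. The windows of the H1 genes are nearly unique, with a median of 95.3% found once in the genome, so these values depend little on how reads are shared between genes. Hist1h1c, the summed rod genes and the summed erythroid genes were all highest in P4 pHes1_ENC and lowest in P1 pHes1_EPC. The 9 erythroid genes found (Hba-a1, Hba-a2 and Hbb-b1 among them) summed to 214, 0.92, 514 and 8.86, with the haem synthesis gene Alas2 at 0.90, 0.15, 1.97 and 0.18 and the red cell membrane gene Slc4a1 at 0.05 at most, and the part of either cell type in the level of Hist1h1c was not tested.

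The Hist2 and Hist3 clusters did not follow Hist1. Hist3h2ba, an H2B gene, had an FPKM of 76.2 in the pHes1_ENC and 15.2 in the pHes1_EPC of P1, with 33.5 and 51.5 in these fractions at P4. It was 5.01-fold (3.67 to 6.67) higher in pHes1_ENC at P1 and 1.54-fold (1.20 to 1.94) higher in pHes1_EPC at P4. Its neighbours Hist3h2bb-ps, annotated as a pseudogene, with 29.2, 7.37, 11.3 and 21.1, and Hist3h2a, with 21.7, 4.96, 18.1 and 15.9, were also highest in P1 pHes1_ENC and lowest in P1 pHes1_EPC. The intervals of Hist3h2a overlapped between the fractions at P4. Among the 10 Hist2 genes 3 were higher and 1 lower at P1 (Hist2h2aa1 and Hist2h2aa2, which share their sequence, account for 1 of each), and none was higher and 4 were lower at P4. Over all genes 6.1% were higher and 6.79% lower at P1, and at P4 it was 9.85% and 5.42%. Hist2h3c1, an H3 gene, had 3.04, 1.72, 8.59 and 3.17, and was 2.71-fold (1.79 to 3.73) higher in pHes1_ENC at P4. The 3 Hist2 H3 genes (Hist2h3b, Hist2h3c1 and Hist2h3c2-ps) were all lower in pHes1_EPC at P4, with differences of -0.64, -1.20 and -1.04, whereas all 9 Hist1 H3 genes were above 0. Hist2h2ac (8.71, 9.18, 18.2 and 8.56) was listed as lower at P4, with a difference of -1.01. Hist2h2bb, an H2B gene, had 10.2, 26.5, 10.2 and 5.68, so it stood out only in P1 pHes1_EPC. Hist2h2be (8.28, 5.96, 11.4 and 11.7) was within the 2-fold limit at both ages, and its P4 difference of 0.04 was below 0 under the other scalings.

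Some values depend on how reads were divided between near-identical lines. Hist2h2aa1 had an FPKM of 12.8, 5.78, 32.0 and 9.44, and its partner Hist2h2aa2 had 0.0021, 6.97, 0.00049 and 0.83, although neither has a window that is found once in the genome. Summed, the pair had 12.8 in P1 pHes1_ENC and 12.8 in P1 pHes1_EPC, so the opposite P1 calls of the partners (-1.02 and 2.99) leave a difference of -0.0043. At P4 the summed pair was still lower in pHes1_EPC, with 32.0 against 10.3 and a difference of -1.55. Hist1h4m and Hist1h4n together had 5.65, 19.2, 0.86 and 5.26, and Hist1h2ao and Hist1h2ap together had 7.10, 16.9, 5.35 and 8.42, and both of these sums kept the direction of the Hist1 cluster.

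**Figure D3:**
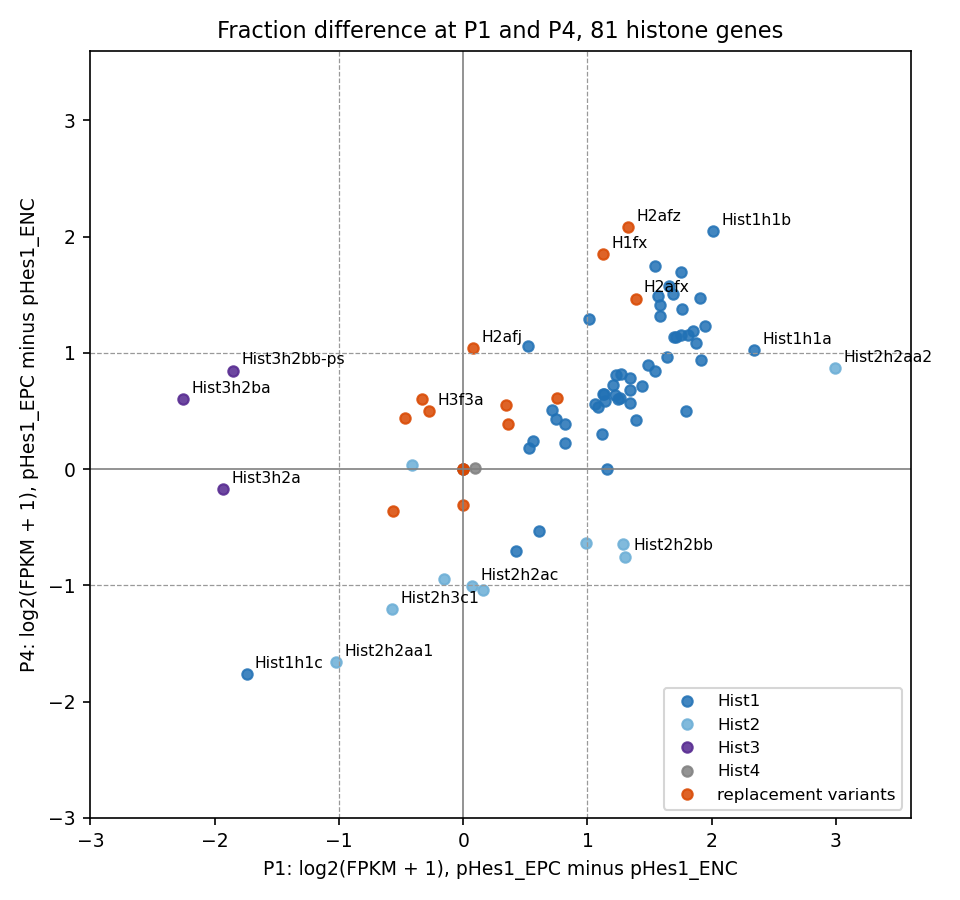
Difference in log2(FPKM + 1) between pHes1_EPC and pHes1_ENC at P1 (horizontal) and at P4 (vertical) for 81 histone genes, coloured by cluster. Points are genes of 1 library pair at each age, and dashed lines mark the 2-fold limits. Hist1 genes fill the upper right, Hist1h1c lies in the lower left at -1.74 and -1.77, and the Hist3 genes lie at the left with P1 differences from -2.25 to -1.85.

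Between P1 and P4 the replication-dependent genes were mostly lower at the later age. The age comparisons use the same 4 libraries as the fraction comparisons, so the values are given side by side and not as further support. In pHes1_EPC 36 of 67 genes were listed as lower at P4, against 2.57% of all genes, and 4 as higher, against 4.17%, with a median difference of -1.10. Among the 26 genes with unique windows 7 were lower and 4 higher, and the log2 ratio of the sums turned from -0.76 to 0.20. Those 4 were Hist1h1c and the 3 Hist3 genes, and the median of the 26 differences was -0.53. In pHes1_ENC 18 of the 67 genes were lower, against 5.94%, and 3 were higher, against 2.77%, with a median of -0.48. After quantile normalization, however, 7 were lower, against 4.63%, and 4 higher, against 3.46%. The genes higher at P4 in pHes1_EPC were Hist1h1c (1.78), Hist3h2ba (1.70), Hist3h2a (1.505) and Hist3h2bb-ps (1.40), and those in pHes1_ENC were Hist1h1c (1.802), Hist2h2aa1 (1.26) and Hist2h3c1 (1.25). Hist1 H3 genes had 111 in P1 pHes1_EPC and 26.0 in P4 pHes1_EPC as summed FPKM, a 4.29-fold lower level at P4. Of the 14 replacement variants none was listed in pHes1_EPC, and 3 were lower in pHes1_ENC (H2afz, H1fx and H2afy3). For comparison, 18 of the 20 S phase genes (Mcm2, Mcm3, Mcm4 and others) were listed as lower at P4 in pHes1_EPC and 13 in pHes1_ENC. Between the fractions all 20 were higher in pHes1_EPC at P1 (median 2.21) and 18 at P4 (median 2.13), and the list summed to an FPKM of 369, 1703, 157 and 657, highest in P1 pHes1_EPC and lowest in P4 pHes1_ENC.

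The 2-fold calls went along with the extent of the gene line and the share of unique sequence. Of the 51 genes whose line ends before or less than 200 bases past the stem-loop, 42 were higher and 2 lower in pHes1_EPC at P1, and of the 11 whose line runs further, 1 was higher and 2 were lower. Over all genes 6.1% were higher and 6.79% lower at P1. At P4 the counts were 20 and 2 against 0 and 2, with 9.85% and 5.42% over all genes. Within the Hist1 cluster the contrast was 40 of 44 against 1 of 8 at P1. By intervals that did not overlap, 34 of 44 and 7 of 8 were higher, against 22.1% of all genes. Over all clusters 36 of 51 and 7 of 11 were higher, and 2 and 3 were lower, against 21.8%. The 8 long Hist1 lines had a median FPKM of 1.41 in P1 pHes1_ENC and 3.01 in P1 pHes1_EPC, where the scale understates differences. So the P1 contrast in higher genes rests on the 2-fold rule. Of the 43 such short Hist1 lines above 0, all had their lowest FPKM in P4 pHes1_ENC, and 42 had their highest in P1 pHes1_EPC. Hist1h2bc, whose line extends 7818 bases past the stem-loop, had 3.59, 7.08, 6.17 and 7.40, a much flatter profile. Shared sequence went along with the line end. Of the 41 genes with less than 50% of their 36-base windows unique among the members, 36 were higher at P1, and of the other 26, 9 were. The median share of windows found once in the genome was 36.8% for H4, 26.0% for H3, 16.7% for H2A and 45.5% for H2B. Since a read that fits several genes is divided between them, these genes are not independent of each other, and the parts of line end and shared sequence cannot be told apart here. Hist1h1a and Hist1h1b, with 100% and 98.0% of their windows found once and short lines, were both higher in pHes1_EPC, at 2.34 and 2.01 at P1. Hist3h2ba, also with a short line and at least 50% of its windows unique among the members, was lower, at -2.25. Hist1h1t, of the same kind, was listed at 0.

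**Figure D4:**
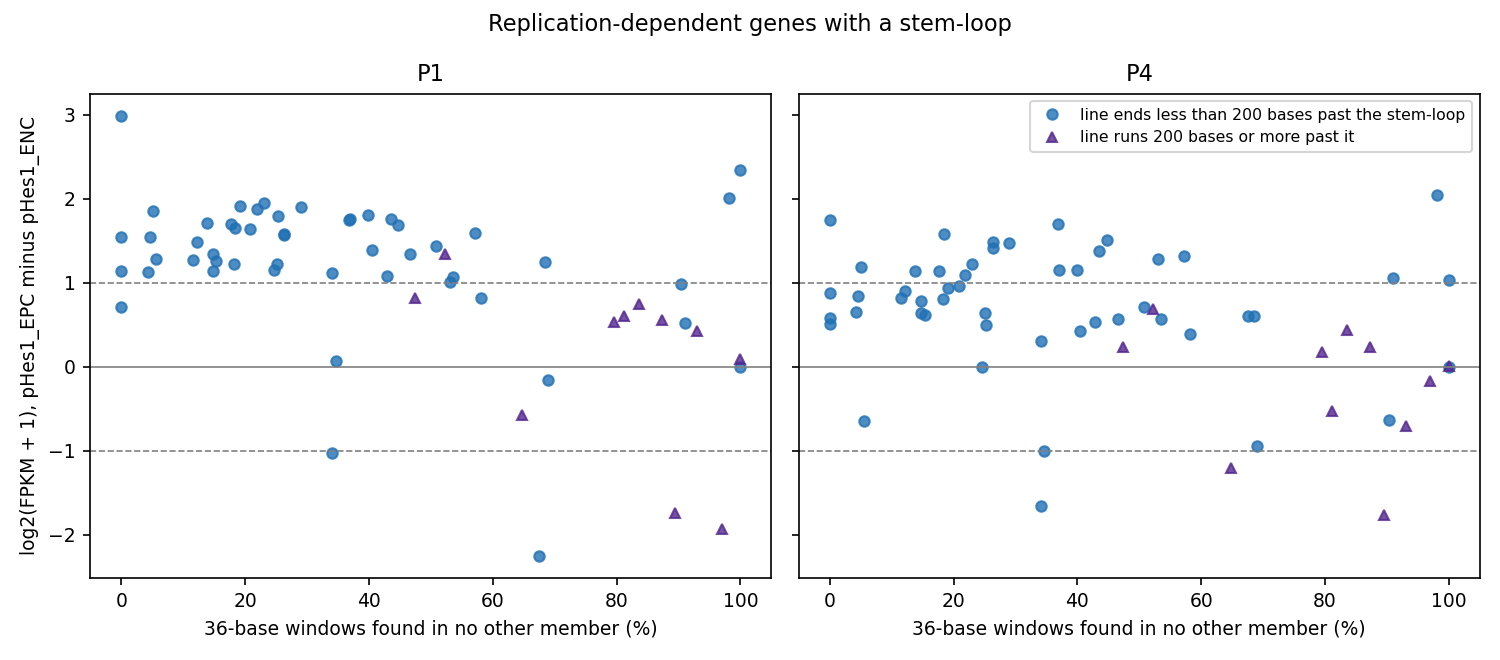
Difference in log2(FPKM + 1) between pHes1_EPC and pHes1_ENC at P1 (left) and P4 (right) against the percentage of 36-base windows of the gene that occur in no other histone gene, for the 62 replication-dependent genes with a stem-loop. Circles are the 51 genes whose line ends before or less than 200 bases past the stem-loop, and triangles are the 11 whose line runs further. At P1 1 of the 11 triangles and 42 of the 51 circles lie above the upper 2-fold limit.

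Neighbouring genes that are read away from each other were compared as pairs, without a comparison with unpaired genes. In the clusters 13 such pairs had line starts at most 1000 bases apart, with a median gap of 278 bases, and 12 of them joined an H2A to an H2B gene. The partners differed by a median of 0.28 in their P1 difference and 0.17 in their P4 difference. The farthest apart were Hist1h2ao and Hist1h2bq at P1 (1.04) and Hist2h2ac and Hist2h2be at P4 (1.05). Both partners were above 0 in 11 pairs at each age, and both were above the upper 2-fold limit in 8 pairs at P1 and in none at P4. Over all genes 6.1% were above it at P1 and 9.85% at P4. Of the 67 replication-dependent genes 45 were above it at P1, and at P4 only 1 H2A and 1 H2B gene were. The pair counts are therefore not read as a result about pairing. Hist1h2ag and Hist1h2bj, 280 bases apart, gave P1 differences of 1.23 and 1.64 and P4 differences of 0.81 and 0.96. The pair Hist3h2bb-ps and Hist3h2a gave -1.85 and -1.93 at P1, the only pair with both partners listed as lower, and 0.85 and -0.17 at P4.

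H2afz and H2afx were higher in pHes1_EPC at both ages. The H2A.Z gene H2afz had an FPKM of 229 in the pHes1_ENC and 575 in the pHes1_EPC of P1, with 103 and 440 in these fractions at P4, a 2.51-fold (2.35 to 2.66) higher level in pHes1_EPC at P1 and a 4.27-fold (3.86 to 4.60) higher level at P4. H2afv, which encodes a closely related H2A.Z, had 69.4, 118, 92.0 and 141, with ratios of 1.70 and 1.54, so the ratio of H2afz to H2afv ranged from 1.12 in P4 pHes1_ENC to 4.87 in P1 pHes1_EPC. H2afx, which is phosphorylated at DNA breaks and is the variant with the stem-loop, had 60.7, 160, 33.0 and 93.1, with ratios of 2.64 (2.37 to 2.89) and 2.82 (2.43 to 3.19). Its line runs 818 bases past the stem-loop. The order of H2afz and H2afx across the libraries was that of the S phase sum. H2afj, which encodes H2A.J, had 13.0, 13.8, 11.6 and 24.9, and its P4 difference of 1.04 was below the limit under each of the other scalings (0.77 to 0.88). The germ-line variant H2afb1 was listed at 0 in every library.

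The macroH2A genes were within the 2-fold limit between the fractions. H2afy had an FPKM of 112, 142, 100 and 148 in P1 pHes1_ENC, P1 pHes1_EPC, P4 pHes1_ENC and P4 pHes1_EPC, and was higher in pHes1_EPC by ratios of 1.27 (1.19 to 1.36) and 1.47 (1.37 to 1.59). H2afy2 had 62.4, 49.5, 31.3 and 48.1, so it was lower in pHes1_EPC at P1 (ratio 0.794, 0.715 to 0.877) and higher at P4 (1.54, 1.37 to 1.74). H2afy3, annotated as a pseudogene, had 14.5, 10.2, 6.60 and 9.33. H2afy2 and H2afy3 share part of their windows with other members, and 82.4% and 85.0% of them are unique among the members.

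H3f3a and H3f3b, which encode the same H3 variant, had the highest levels of the H3 genes. H3f3b had an FPKM of 758, 513, 1145 and 892, and was 1.48-fold (1.43 to 1.53) higher in pHes1_ENC at P1 and 1.28-fold (1.25 to 1.31) higher at P4. H3f3a had 447, 369, 464 and 657, and was 1.21-fold (1.15 to 1.27) higher in pHes1_ENC at P1 and 1.42-fold (1.35 to 1.49) higher in pHes1_EPC at P4. After quantile normalization the P4 difference of H3f3a was -0.0074, so its direction there rests on the scaling. Only 34.6% of the windows of H3f3a occur once in the genome, and 1 of them occurs at 12502 positions, whereas TopHat kept at most 50 positions for a read. The H3f3b to H3f3a ratio was 1.70, 1.39, 2.47 and 1.36.

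**Figure D5:**
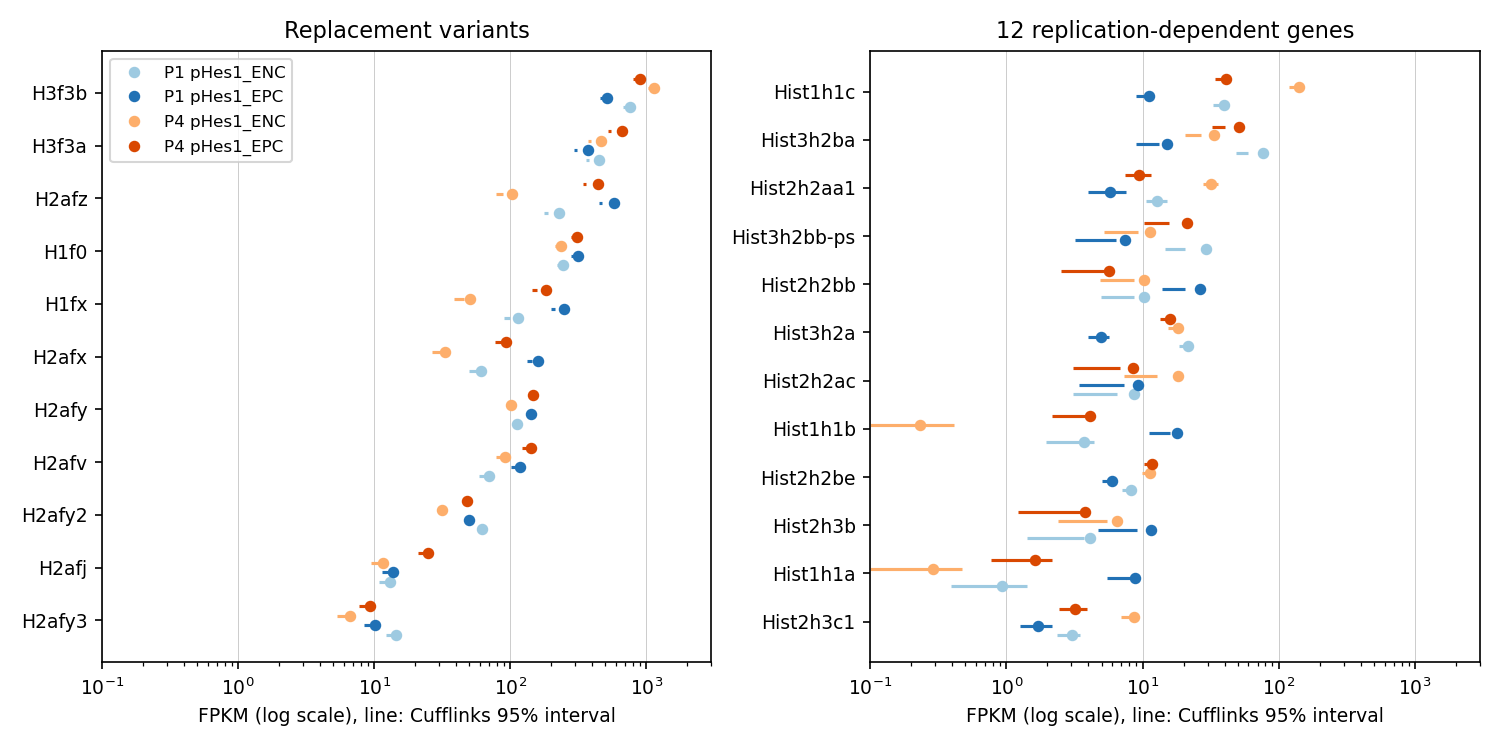
FPKM of the replacement variants with an FPKM of at least 1 (left) and of 12 replication-dependent genes (right) in each library, on a log scale. Points are single libraries and lines are the Cufflinks 95% intervals, which for several genes lie below the value. H2afz, H1fx and H2afx are lowest in P4 pHes1_ENC, at 103, 50.2 and 33.0, and Hist1h1c is highest there, at 141.

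Of the 4 linker variants outside the clusters, H1f0 and H1fx were abundant. H1f0, a linker histone known from differentiated and resting cells (its locus is annotated as a pseudogene in GENCODE M1), had an FPKM of 244, 313, 238 and 310, with pHes1_EPC higher by a ratio of 1.28 (1.23 to 1.34) at P1 and by 1.31 (1.25 to 1.37) at P4, and the P4 difference was -0.060 after quantile normalization. H1fx had 114, 250, 50.2 and 184, and was 2.20-fold (2.00 to 2.39) higher in pHes1_EPC at P1 and 3.66-fold (3.20 to 4.07) higher at P4. Thus H1f0 was 4.73 times H1fx in P4 pHes1_ENC and 1.25 times in P1 pHes1_EPC. All windows of both genes occur once in the genome. The oocyte gene H1foo was at 0, 0, 0.34 and 0.08, and the spermatid gene H1fnt was listed at 0 in every library. The 5 germ line genes (Dazl, Ddx4, Sycp3, Zp3 and Prm1) reached at most 1.38.

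The genes that process, carry and deposit histones were read from a list of 39. Of these 11 were higher in pHes1_EPC at P1, against 6.1% of all genes, and none was lower, against 6.79%. At P4 7 were higher, against 9.85%, and 1 was lower, against 5.42%. The median differences were 0.27 and 0.21. Slbp, which binds the stem-loop, had an FPKM of 27.8 in the pHes1_ENC and 94.5 in the pHes1_EPC of P1, with 21.5 and 41.8 in these fractions at P4, with differences of 1.73 and 0.93. Npat, which activates transcription of the clusters, had 5.38, 10.5, 5.70 and 5.93, and its differences of 0.85 and 0.05 were within the limit, the latter being -0.12 to -0.20 under the other scalings. Among the chaperones of newly made H3 and H4, Asf1a was within the limit, with differences of 0.39 and 0.66. Its paralog Asf1b had 8.54, 37.2, 1.88 and 13.9, and the assembly factor genes Chaf1a and Chaf1b had P1 differences of 1.95 and 2.17 and P4 differences of 1.27 and 2.37. Nasp (1.37 and 1.24) and Dnajc9 (1.67 and 1.25) were listed at both ages, although at P4 Chaf1a (0.97), Nasp (0.95), Dnajc9 (0.96) and Hjurp (0.91) were within the limit under at least 1 other scaling. Hat1, the acetyltransferase of new H4, had differences of 1.68 and 0.98, Rbbp7 had 1.06 and 0.70, and Tonsl had 1.33 and 0.07, the latter below 0 under the other scalings. The centromeric H3 gene Cenpa had 20.9, 51.6, 4.78 and 43.2, and its chaperone gene Hjurp had differences of 1.22 and 1.23. The chaperones of H3f3a and H3f3b product were within the limit: Hira differed by 0.09 and 0.26 (-0.015 at P4 after rescaling to the same total), Daxx by 0.02 and -0.59, and Atrx by -0.22 and -0.65. Nap1l1, a chaperone of H2A and H2B, had 219, 234, 424 and 198, and was listed as lower in pHes1_EPC at P4, with a difference of -1.09.

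The remaining marker lists were mostly low. Beside their counts, 6.1% of all genes were higher and 6.79% lower at P1, and 9.85% and 5.42% at P4. The 6 microglia genes (Aif1, Csf1r, Cx3cr1 and others) summed to an FPKM of 2.07, 10.2, 7.29 and 10.2, and 3 of them were higher in pHes1_EPC at P1. Of the 5 endothelial genes (Pecam1, Cdh5, Kdr and others) 1 was higher and 1 lower in pHes1_EPC at P1, and 1 was higher at P4, and the summed FPKM of 63.4, 212, 14.8 and 193 came mostly from Kdr. Pecam1, Cdh5 and Tie1 were at 0.14 at most, and Cldn5 was at 16.3, 3.49, 2.59 and 4.06. At P1 the erythroid list gave 4 genes lower in pHes1_EPC and none higher, and at P4 it gave 6 and none. The part of these cells in the histone values was not tested.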

How the data were processed

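Total RNA of sorted cells was reverse transcribed with random primers and sequenced as single 36-base reads. By the study's methods and the submitters' processing notes, the authors made reads with bcl2fastq 1.8.4, aligned them to NCBI37/mm9 with TopHat2 2.0.8b (coverage search, up to 50 positions for a read) and computed FPKM with 95% intervals in Cufflinks 2.1.1 at default options. The deposited unit is FPKM per gene line. The annotation given to Cufflinks, poly(A) selection and the number of pooled animals are not given in the sources used here, and read depth is not in the files.

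From 23021 lines, 799 small RNA lines were dropped and the line with the highest summed FPKM was kept for a repeated symbol, which left 21826 genes. Differences are of log2(FPKM + 1), and a gene was listed beyond 1 in either direction. With 1 library per group no test was run. Ratio ranges divide the interval bounds and cover counting error only. Sequences and 36-base windows were read from the NCBI37/mm9 genome with GENCODE M1 and pyfaidx 0.9.0.4, in Python 3.11.15 with numpy 2.4.6, pandas 2.3.3 and matplotlib 3.10.9. The scripts were tested on simulated data.

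The members, gene lists and thresholds were chosen with earlier results of these data known. Named were every replacement variant, every cluster gene with an FPKM of at least 10 in a library and every member listed against most of its class. Among the genes that process and carry histones, those listed between the fractions with an FPKM of at least 5 were named, and Slbp, Npat, Hira, Daxx, Atrx and Cenpa whatever their values. Named after their values were seen were Hist1h1a, Hist1h1d, Hist1h1e, Hist1h1t, Hist1h2aa, Hist1h2ao, Hist1h2ba, Hist1h2bc, Hist1h2bq, Hist1h4a, Hist1h4m and Hist2h2aa2, and Asf1a, Zp3, Prm1, Slc4a1, Alas2, Tie1 and Cldn5. Other pseudocounts, filters on low values and status, scalings, an interval rule and a limit to genes with unique windows were tried, and the sum without Hist1h1c was added after the values had been seen. Srcap and Ahsp were not found by symbol.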

Additional observations from a re-analysis of the deposited data

Results flagged for a closer look

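Of the 81 histone genes, 7 had opposite differences between pHes1_EPC and pHes1_ENC at the ages, with intervals that did not overlap at either age. The share of all genes that meet this joint rule was not computed, so the count is not read as unusual. Intervals lay apart at P1 for 22.1% of all genes as higher and 21.8% as lower in pHes1_EPC. The P4 shares were 28.3% and 18.6%. The difference between the ages was not tested, since each group is 1 library. In log2(FPKM + 1), Hist3h2ba gave -2.25 at P1 and 0.60 at P4, and its neighbour Hist3h2bb-ps gave -1.85 and 0.85. The macroH2A gene H2afy2 gave -0.33 and 0.60, and H2afy3 gave -0.47 and 0.44. H3f3a gave -0.27 and 0.50, but its P4 difference was -0.0074 after quantile normalization. The linker genes went the other way, with 0.42 and -0.71 for Hist1h1d and 0.61 and -0.53 for Hist1h1e.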

How the results depend on the processing

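No paired analysis was possible because each group is 1 library and no replicate numbers are shared. A fit of age and fraction without their interaction, with 1 residual degree of freedom, was not run. At P1 the 45 higher replication-dependent genes became 9 among genes with 50% unique windows, of which there are 26. By intervals that do not overlap, 6 replacement variants were higher and 4 lower at P1 (22.1% and 21.8% of all genes), and 10 were higher and 1 lower at P4 (28.3% and 18.6%). At P4 the 20 higher replication-dependent genes became 32 with a pseudocount of 0.1 or none, 9 by intervals, 12 after rescaling to the same total, 11 after quantile normalization and 5 among genes with unique windows. The 5 lower genes became 8 with a pseudocount of 0.1 or none and 2 among genes with unique windows, and 1 replacement variant was lower with a pseudocount of 0.1 or none. The share of all genes lower under these pseudocounts was not computed, so these lower counts are not read as unusual. With unique windows the log2 ratio of the replication-dependent sums was -0.44 at P1, against 0.72, and 0.20 between the ages in pHes1_EPC, against -0.76. Hist1h1c and the 3 Hist3 genes are among the 26. The log2 ratio of the replacement sums at P1, 0.24, was 0.16 after rescaling to the same total. At P4 it was 0.37, and became 0.0818 after rescaling to the same total, 0.17 with median-of-ratios scaling and -0.0844 after quantile normalization. Between the ages in pHes1_EPC it was 0.23, against -0.11, 0.0512 and -0.38 under these scalings, and in pHes1_ENC 0.10, against -0.0315 after rescaling and -0.14 after quantile normalization. The causes were not tested. These scalings shifted the median of 15572 genes by -0.25, -0.18 and -0.16 at P4 and by -0.29, -0.16 and -0.12 between the ages in pHes1_EPC. The other 105 values for the classes moved by less than their limits, but 3 of them turned sign. The replication-dependent sums turned from -0.09 to 0.37 at P4 without Hist1h1c, and between the ages in pHes1_ENC from 0.05 to -0.0821 after rescaling and to -0.42 without Hist1h1c. For single named genes 828 values moved by less than their interval and 78 by more. The depth is not in the files, and low cluster genes have intervals as wide as their level.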
